A study of Arabidopsis thaliana with 12 samples.

Results

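The 6 wild-type (WT) libraries of the series compare unopened floral buds held at 38 °C for 6 h with buds kept at 22 °C, with 3 biological replicates at each temperature, out of 12 libraries in all. They were chosen by genotype and temperature alone, and no measured value entered that choice. The plants were Arabidopsis thaliana Columbia-0 grown in a 16 h day and 8 h night, and each replicate pooled the buds (stages 1 to 12) of 8 plants. The other 6 libraries come from the T-DNA insertion mutant bzip17 (SALK_104326), which lacks a membrane-anchored transcription factor of the endoplasmic reticulum, under the same pair of temperatures. All 12 libraries share the Col-0 background. Of 33610 genes in the table, 20715 reached 1 FPKM in at least 3 libraries and were tested.

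Heat unfolds proteins, and plant cells answer by raising chaperones under the control of heat stress transcription factors. A bud is also a growing organ in which meristem, sepals, petals, anthers and carpels divide and expand at the same time, so its RNA carries histones, cyclins, tubulins and cell wall enzymes besides the products of maturing pollen. Splicing factors, the clock, water channels and nitrogen metabolism are known to respond to temperature in leaves and seedlings. The chaperone and unfolded protein genes served here only for orientation, and the values below concern the other genes.

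The tissue label was first compared with its markers. All 8 floral organ identity genes examined were present in every WT library, with AP3, a petal and stamen identity gene, at 71 to 119 CPM (counts relative to the TMM-scaled size of the library) and SEP3, a MADS factor of the inner whorls, at 57.5 to 202 CPM. The seed storage genes CRA1, SESA1 and OLEO1 stayed at 0 to 0.661 CPM, and the root endodermis gene CASP1 had 0 counts throughout. The root genes IRT1 (1.81 to 4.08 CPM) and COBL9 (1.11 to 2.75 CPM) were detected in all WT libraries, and neither passed the test. Total counts were 38.6 to 54.9 M per WT library. The share taken by ribosomal RNA (rRNA) was 3.76, 15.1 and 64.8% in replicates 1, 2 and 3 at 22 °C and 19.0, 3.57 and 2.80% at 38 °C, which left 13.6 M counts outside rRNA in replicate 3 at 22 °C and 37.2 to 52.8 M in the other 5. BZIP17, the gene mutated in the other libraries, had 31.7 to 45.1 CPM at 22 °C against 45.2 to 51.1 CPM at 38 °C. Its log2 change was 0.36 (SE 0.19, adjusted p = 0.187), which did not pass the test.

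At 38 °C 1325 genes were higher and 1333 were lower than at 22 °C, which is 6.40% and 6.43% of the genes tested (quasi-likelihood test of edgeR, p adjusted by the Benjamini-Hochberg method and under 0.05, with a change over 2-fold, the rule behind every "rose" and "fell" that follows). The 3 libraries of the 2 temperatures did not overlap for 1310 of the genes that rose and for 1319 of those that fell. The rule itself selects genes whose libraries separate, and the share without overlap over all tested genes was not counted. Non-overlap of a called gene, here and below, therefore describes its values and adds no support to the call. Of the genes that rose 353 changed over 8-fold and 121 over 32-fold, against 76 and 15 of those that fell. A gene could pass the FPKM limit through the libraries of 1 temperature alone, which fixes its direction and favours a large fold. Of 1017 nuclear protein-coding genes that rose, 801 reached the limit in at least 3 libraries at 22 °C of both genotypes together. The rises also hold 105 mitochondrion-encoded genes, and the median log2 change of the mitochondrial genome was 3.27. These counts of large changes are therefore descriptions. The genes that rose summed to 18589, 18452 and 18902 CPM at 22 °C and to 63715, 84071 and 62235 CPM at 38 °C. Replicate 2 at 38 °C stood highest of the 3 in this sum. The genes that fell summed to 76969, 89122 and 81024 CPM at 22 °C and to 30387, 28896 and 28607 CPM at 38 °C, so that they held the larger share of the transcripts at 22 °C. These are bulk libraries, and fewer cells of a type and less RNA per cell cannot be told apart.

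The balance of the calls rests on the scaling. With TMM scaling 49.8% of the calls were higher and the median log2 change over all tested genes was 0.02. With plain library totals, in which the rRNA of replicate 3 at 22 °C counts as depth, 83.0% were higher and that median was 0.41. Without the WT libraries over 10% rRNA, which leaves 1 library at 22 °C and 2 at 38 °C, 339 genes were higher and 168 lower.

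**Figure D1:**
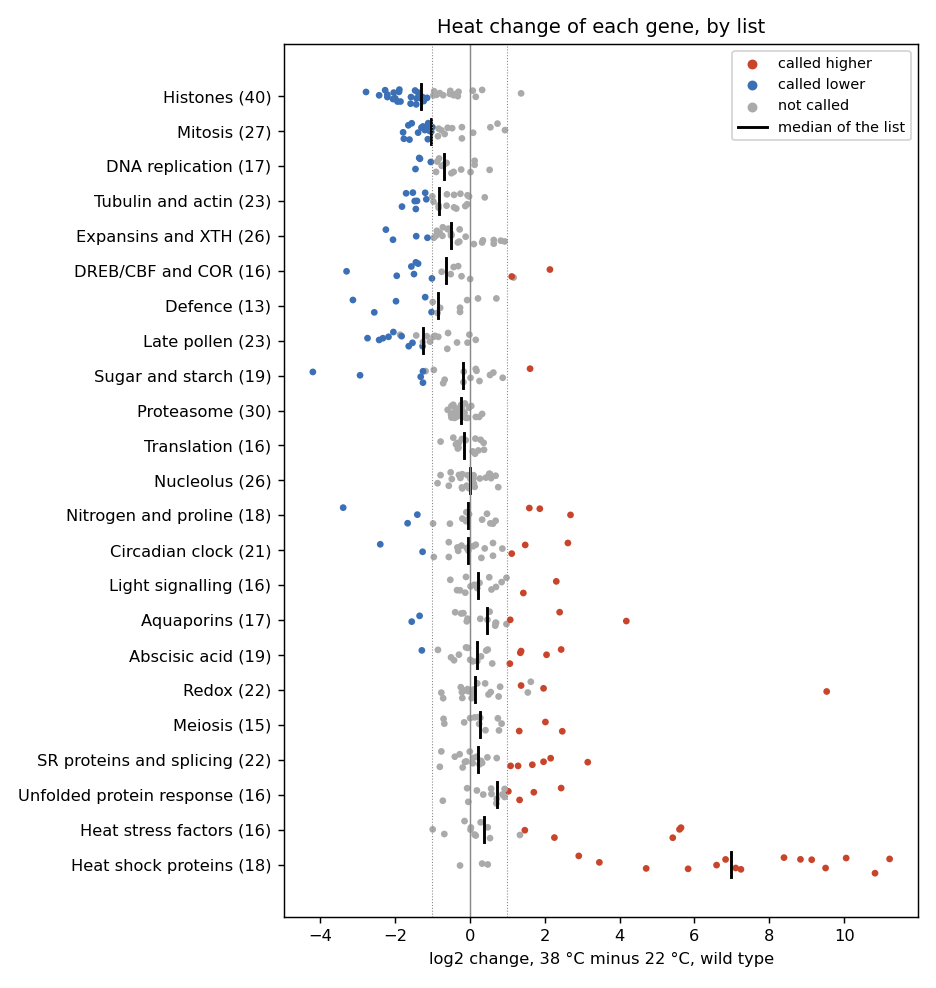
Log2 change of CPM between 38 °C and 22 °C (x axis) for each tested gene of 23 gene lists in WT buds, 1 point per gene, with the number of tested genes in parentheses. Red and blue points passed the test in either direction, grey points did not, black bars are list medians and dotted lines mark 2-fold; the histone median lies at -1.3.

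Transcripts for packaging new DNA fell together. Of 40 tested histone genes 23 fell, 0 rose and 17 did not pass the test, with a median log2 change of -1.3, against 0.02 over all tested genes. The whole family summed to 5332, 6720 and 6798 CPM at 22 °C and to 2572, 2203 and 3086 CPM at 38 °C. The 3 heat libraries therefore all lay below the 3 libraries at 22 °C, and the mean at 22 °C was 2.4 times that at 38 °C. Counts of histone genes that fell ranged from 21 to 26 as each WT library was left out, reached 12 with library totals and 6 without the libraries over 10% rRNA, where the median was -0.98.

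Within the family the decline was uneven between classes. H3.1 is the H3 form that is laid down as DNA is copied, and all 5 of its genes fell, with a median log2 change of -2.03. Their sum was 696, 980 and 1158 CPM at 22 °C against 196, 211 and 283 CPM at 38 °C. H3.3 replaces H3 outside of replication, and 0 of its 3 genes passed the test. Their sum was 904, 945 and 930 CPM at 22 °C against 687, 390 and 554 CPM at 38 °C, a median of -0.52. Among the H4 genes 6 of 8 fell (median -1.57), as did 7 of 9 for H2B (median -1.38) and 5 of 12 for H2A (median -0.86). The 3 linker histone H1 genes gave 0 calls. No test was run between classes.

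HTA6, an H2A gene (AT5G59870, chromosome 5, 24115381 to 24116220), had the deepest fall of the family. It stood at 190, 264 and 237 CPM at 22 °C and at 31.8, 28.3 and 41.6 CPM at 38 °C, a log2 change of -2.77 (SE 0.26, adjusted p = 6.4e-05). AT5G10390, an H3.1 gene, went from 67.4, 93.9 and 73.9 CPM to 12.7, 14.3 and 16.8 CPM, a log2 change of -2.42 (SE 0.28, adjusted p = 1.8e-04). Neither gene had a heat library within the range of the libraries at 22 °C. H2A.Z is the H2A variant linked to temperature sensing in Arabidopsis, and its genes did not move alike. HTA11 fell from 183, 216 and 174 CPM to 38.5, 40.2 and 60.3 CPM, whereas HTA8 (log2 change -0.30) and HTA9 (log2 change -0.32) did not pass the test.

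**Figure D2:**
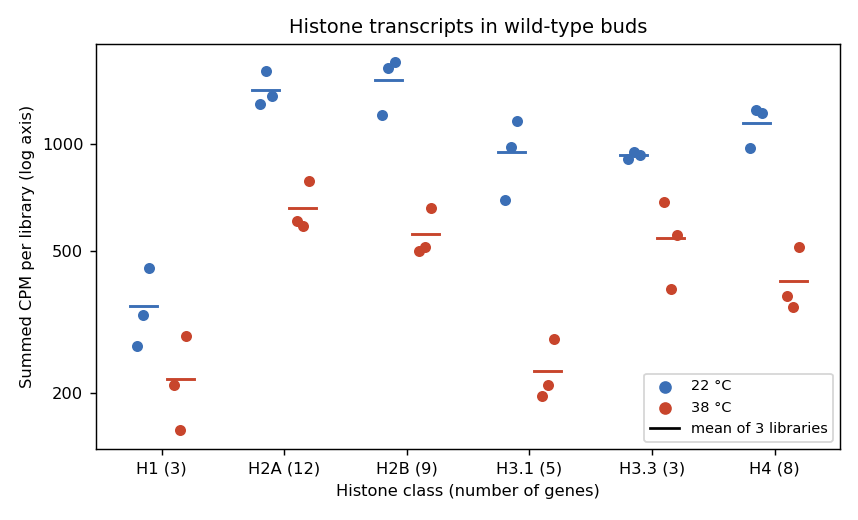
Summed CPM of the genes of each histone class in each WT library (log axis), with 3 points per temperature and a bar at their mean, and the number of genes in parentheses. H3.1 fell from 696 to 1158 CPM at 22 °C to 196 to 283 CPM at 38 °C, and in every class except H1 the temperatures do not overlap.

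Plant histone promoters are known for an octamer, CGCGGATC, tied to expression in S phase. The 250 bases upstream of each annotated gene start (RefSeq, TAIR10.1) were searched for it on both strands. It was in 10 of 40 histone promoters (25%) and in 30 of 19623 promoters of tested protein-coding genes (0.153%). Of the 10 histone genes that carry it 6 fell, and of the 30 without it 17 fell. The windows of the 6 that fell follow, 5′ to 3′ on the strand of the gene and with the octamer or its reverse complement in capitals, to show how the element sits in genes that fell together.
HTA6, chr5:24116309-24116356, minus strand: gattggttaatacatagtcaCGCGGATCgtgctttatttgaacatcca
AT1G09200 (H3.1), chr1:2972397-2972444, minus strand: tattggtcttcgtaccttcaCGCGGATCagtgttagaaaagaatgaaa
AT5G10400 (H3.1), chr5:3271050-3271097, minus strand: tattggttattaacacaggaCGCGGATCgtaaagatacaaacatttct
AT5G65360 (H3.1), chr5:26120680-26120727, minus strand: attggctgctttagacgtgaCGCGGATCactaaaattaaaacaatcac
AT5G59690 (H4), chr5:24051383-24051430, plus strand: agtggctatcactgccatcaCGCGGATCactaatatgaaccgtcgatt
HTA13, chr3:7229302-7229349, plus strand: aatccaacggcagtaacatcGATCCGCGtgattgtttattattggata
The motif begins 116 bases upstream of the annotated start in HTA6 and 68 bases upstream in HTA13. A match is a description of these letters and not evidence of a bound site.

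Other chromosomal protein genes and some replication genes fell as well. HMGB2 and HMGB3 are small abundant DNA-bending proteins of chromatin whose genes lie next to each other on chromosome 1 (7176775 to 7178820 and 7179452 to 7181499). HMGB2 went from 334, 324 and 351 CPM to 45.6, 32.1 and 52.9 CPM, a log2 change of -2.95 (SE 0.26, adjusted p = 4.3e-05). HMGB3 went from 236, 261 and 282 CPM to 65.8, 59.8 and 66.1 CPM, a log2 change of -2.02 (SE 0.15, adjusted p = 2.0e-05). For both genes every heat library lay below every library at 22 °C. Of 17 DNA replication genes 4 fell and 0 rose (median -0.68): TSO2, a ribonucleotide reductase subunit (-1.45), PCNA1, the sliding clamp of DNA polymerase (-1.33), ORC6 of the origin recognition complex (-1.35) and MCM3 of the replicative helicase (-1.04). With library totals 0 of the 17 fell (median -0.24), and 0 fell without the libraries over 10% rRNA (median -0.37). The DNA methyltransferase MET1, which copies CG methylation after replication, was the only one of 18 DNA methylation and silencing genes to pass, at -1.11. The MET1 call was lost without replicate 3 at 22 °C, and the MCM3 call without that library or replicate 1 or 3 at 38 °C. Of 15 DNA damage response genes 0 passed in either direction.

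Mitosis and cytokinesis genes also declined, 15 of 27 falling and 0 rising with a median of -1.03. KN, the syntaxin of the cell plate, stood at 83.9, 99.8 and 121 CPM at 22 °C and at 28.6, 29.5 and 41.2 CPM at 38 °C (log2 change -1.61, SE 0.23, adjusted p = 6.8e-04). HIK, a kinesin of cytokinesis, stood at 56.1, 65.5 and 71.0 CPM and at 16.6, 15.2 and 25 CPM (log2 change -1.76). The temperatures did not overlap for either gene. The B-type cyclins CYCB1;2 (-1.29), CYCB2;1 (-1.78) and CYCB2;4 (-1.64) fell as well, while MYB3R1, a MYB factor of mitotic promoters, had 0.94 and lay under the 2-fold limit. With library totals 1 of the 27 fell, 1 rose and the median was -0.57, and without the libraries over 10% rRNA 0 fell with a median of -0.78.

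Mitotic promoters carry the MSA element, read by MYB3R factors, whose core is AACGG. On either strand of the 250 bases the core was in 17 of 27 mitosis promoters (63.0%), in 19 of 40 histone promoters (47.5%) and in 22.0% of all 19623. Among the mitosis genes 12 of the 17 with it and 3 of the 10 without it fell. The first match in 5 genes that fell is given with the core or its reverse complement in capitals, to set these cell division promoters beside the histone windows above.
KN, chr1:2711001-2711032, minus strand: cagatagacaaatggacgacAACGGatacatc
HIK, chr1:6324379-6324409, minus strand: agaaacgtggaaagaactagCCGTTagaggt
CYCB1;2, chr5:1861822-1861866, minus strand: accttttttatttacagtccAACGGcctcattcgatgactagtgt
CYCB2;1, chr2:7663898-7663942, plus strand: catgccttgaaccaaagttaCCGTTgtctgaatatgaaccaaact
CYCB2;2, chr4:16901404-16901448, plus strand: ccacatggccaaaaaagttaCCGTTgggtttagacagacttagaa
A 5-base core occurs often by composition, as its share over all promoters shows.

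Some tubulin and wall enzyme genes fell. Of 23 tubulin and actin genes 8 fell and 0 rose, with a median of -0.83, and all 8 were tubulins. TUB4, a beta-tubulin, stood at 561, 596 and 446 CPM at 22 °C and at 170, 202 and 187 CPM at 38 °C (log2 change -1.52, SE 0.17, adjusted p = 1.5e-04). TUB5 stood at 131, 148 and 173 CPM and at 36.9, 47.2 and 54.3 CPM (log2 change -1.70). In both, every heat library lay below every library at 22 °C. ACT2, the main vegetative actin, had a log2 change of -0.97, under the 2-fold limit. With library totals 1 of the 23 fell and the list median was -0.35. Without the libraries over 10% rRNA 3 fell. Of 26 expansins and xyloglucan endotransglucosylases (XTH), enzymes that loosen and re-join wall polymers, 4 fell and 0 rose (median -0.50), against 2 falls with library totals (median -0.1) and 1 without the libraries over 10% rRNA. XTH9 went from 777, 834 and 513 CPM to 144, 150 and 219 CPM, a log2 change of -2.05 (SE 0.25, adjusted p = 2.5e-04). XTH3 (-2.24) and XTH4 (-1.43) fell too. CWINV2, a cell wall invertase, had -4.19, although its coordinates overlap AT3G52590 and its counts are uncertain. Of 13 genes of cellulose synthase and its partners 0 fell, and CESA7 of secondary walls rose at 1.04 with coordinates that overlap AT5G17410, a call lost without replicate 3 at 22 °C or replicate 3 at 38 °C. COBL2, a GPI-anchored COBRA-like wall protein, was outside these lists and rose from 4.72, 6.37 and 3.90 CPM to 21.9, 28.9 and 27.5 CPM (log2 change 2.38, SE 0.20, adjusted p = 3.9e-05).

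**Figure D3:**
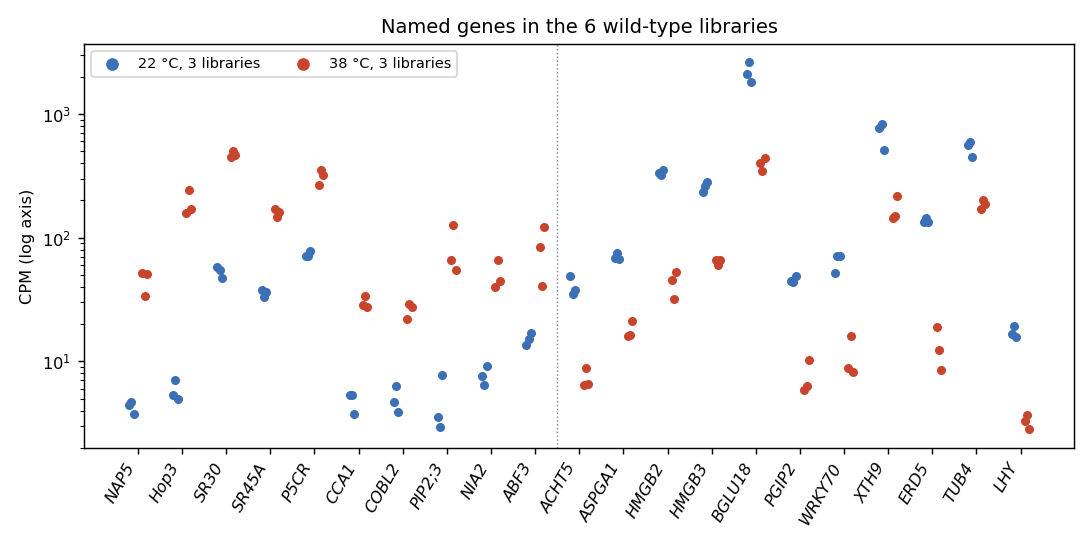
CPM of 21 named genes in the 6 WT libraries (log axis), with 3 points at 22 °C and 3 at 38 °C for each gene. Genes left of the dotted line rose and genes right of it fell, and no gene drawn has overlapping temperatures.

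Among the genes that rose outside the chaperones, splicing regulators gave some of the smallest p-values. SR proteins bind RNA and steer the choice of splice sites. Of 22 SR and related splicing genes 6 rose and 0 fell (median 0.22), and 16 did not pass the test. SR30 (AT1G09140, chromosome 1, 2942564 to 2945961) went from 57.9, 54.5 and 47.0 CPM to 446, 499 and 467 CPM, a log2 change of 3.15 (SE 0.19, adjusted p = 4.9e-06). SR45A went from 38.0, 33.4 and 36.5 CPM to 171, 148 and 162 CPM (log2 change 2.16, SE 0.14, adjusted p = 7.3e-06). Both kept 3 tight replicates at each temperature. SR34B (1.97) and SCL33 (1.29) rose, as did RSZ33 (1.67) and RS31A (1.09), which share coordinates with AT2G37330 and AT2G46600. The count stayed at 5 or 6 as each WT library was left out and was 4 without the libraries over 10% rRNA. Gene-level counts do not show which splice forms these are.

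Rises were ranked among non-overlapping nuclear genes with a symbol outside the chaperone, heat factor and unfolded protein lists. The smallest p-values belonged to NAP5, an ABC protein, and to Hop3, a co-chaperone that links Hsp70 and Hsp90. NAP5 went from 4.41, 4.73 and 3.77 CPM to 51.9, 33.9 and 50.8 CPM (log2 change 3.39, SE 0.18, adjusted p = 2.1e-06). Hop3 went from 5.35, 7.01 and 4.94 CPM to 157, 245 and 171 CPM (log2 change 5.04, SE 0.27, adjusted p = 2.1e-06). In both genes the lowest heat library was several times the highest library at 22 °C. HSA32, needed to keep acquired thermotolerance, rose by 4.90 log2, with replicate 2 at 38 °C at 175 CPM and the other heat libraries at 67.7 and 87.2 CPM. PDIL2-2, a protein disulfide isomerase (1.90), and ZAT, a zinc transporter (1.39), were among the 10 with the smallest p of the non-overlapping nuclear genes with a symbol outside the chaperone, heat factor and unfolded protein lists.

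A proline synthesis gene rose and a proline breakdown gene fell. P5CR, the last enzyme of proline synthesis, rose from 70.7, 71.7 and 77.3 CPM to 269, 351 and 319 CPM (log2 change 2.1, SE 0.14, adjusted p = 8.7e-06). ERD5, the proline dehydrogenase that starts proline breakdown, fell from 135, 144 and 133 CPM to 18.8, 12.4 and 8.56 CPM (log2 change -3.38, SE 0.37, adjusted p = 1.5e-04). In neither gene did the temperatures overlap. Of 18 genes of nitrate uptake, reduction and assimilation, a list that includes ERD5, 3 rose and 3 fell (median -0.04), against 3 and 1 with library totals and 1 and 1 without the libraries over 10% rRNA. The nitrate reductase NIA2 rose from 7.67, 6.46 and 9.17 CPM to 39.8, 65.5 and 44.2 CPM (log2 change 2.69, SE 0.25, adjusted p = 6.4e-05). NIA1, the other nitrate reductase, rose by 1.87. NIR1, the nitrite reductase of the next step, rose by 1.59 with 53.4, 126 and 46.3 CPM at 38 °C. Without replicate 2 at 38 °C its change was 0.99 and did not pass. The cytosolic glutamine synthetase GLN1;1 fell by 1.66 on the log2 scale. ASPGA1, an asparaginase that frees ammonium from asparagine, fell from 68.1, 75.2 and 67.5 CPM to 15.9, 16.2 and 21.3 CPM (log2 change -1.98, SE 0.15, adjusted p = 1.4e-05).

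Water channels changed one by one. Of 17 aquaporins 3 rose and 2 fell, with a median of 0.47. With library totals 3 rose and 0 fell, and without the libraries over 10% rRNA 1 rose and 0 fell. PIP2;3, a plasma membrane channel, stood at 3.57, 2.94 and 7.74 CPM at 22 °C and at 66.5, 127 and 54.9 CPM at 38 °C (log2 change 4.18, SE 0.48, adjusted p = 1.8e-04). PIP2;2, its neighbour and near copy, stood at 8.77, 6.96 and 3.32 CPM and at 34.9, 34.8 and 32.6 CPM (log2 change 2.40). Reads of this pair may be split between them, so each value alone is uncertain. PIP2;5 rose by 1.08, a call that was lost without replicate 3 at 22 °C or replicate 1 at 38 °C, while PIP2;8 fell by 1.34 on the log2 scale.

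Dehydration and cold genes did not move as a block. Of 16 CBF, DREB and protective protein genes 7 fell and 2 rose, with a median of -0.63. With library totals 2 fell and 1 rose (median -0.28), and without the libraries over 10% rRNA 2 fell and 0 rose. COR15B, a chloroplast protein that protects membranes on freezing, fell from 143, 117 and 131 CPM to 50.4, 42.3 and 39.6 CPM (log2 change -1.56, SE 0.17, adjusted p = 1.3e-04). The dehydrin LTI30 fell from 5.82, 8.59 and 10.2 CPM to 0.147, 1.75 and 0.591 CPM, a log2 change of -3.29 that became -4.46 without replicate 2 at 38 °C. ERD10 (-1.38) and COR413PM1 (-1.49) fell as well. DREB2C, a factor of heat and drought responses, rose from 3.02, 3.86 and 2.60 CPM to 12.5, 15 and 14.5 CPM (log2 change 2.14, SE 0.25, adjusted p = 2.3e-04). Without replicate 2 at 22 °C 4 of the 16 fell, and the smaller rise of DREB2B (1.12) was lost without that library, replicate 3 at 22 °C or replicate 1 at 38 °C. Within 19 abscisic acid genes (median 0.20) 5 rose and 1 fell. ABF3, a bZIP factor of abscisic acid responses, stood at 13.5, 15.2 and 17 CPM at 22 °C and at 83.5, 40.6 and 123 CPM at 38 °C (log2 change 2.44, SE 0.33, adjusted p = 4.3e-04). ABI5 (1.35), RAB18 (2.05), RD26 (1.37) and HAI1 (1.07) rose, and CYP707A1, which breaks down the hormone, fell by 1.28 on the log2 scale. Only 2 of the 5 rises passed without replicate 1 at 38 °C, and also 2 without replicate 3 at 38 °C, and 3 passed without replicate 3 at 22 °C. Without the libraries over 10% rRNA 0 of the 19 passed, and with library totals 5 rose and 0 fell.

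Part of the salicylate defence genes fell. Of 13 tested genes 5 fell, 0 rose and 8 did not pass, with a median of -0.86. WRKY70, a factor that promotes salicylate responses, went from 52.0, 71.1 and 70.7 CPM to 8.88, 16.0 and 8.17 CPM (log2 change -2.55, SE 0.31, adjusted p = 2.6e-04). PR5, a thaumatin-like pathogenesis protein, went from 73.5, 55.2 and 49.5 CPM to 6.49, 3.26 and 10.8 CPM (log2 change -3.12). EDS1 (-1.02), PAD4 (-1.97) and SAG101 (-1.19), partners in immune signalling, fell too, EDS1 in a call lost without replicate 2 at 22 °C or replicate 1 or 3 at 38 °C. With library totals 2 of the 13 fell, and without the libraries over 10% rRNA 0 passed and the median was -0.08. Outside the list, PGIP2, an inhibitor of fungal polygalacturonases, fell from 44.4, 43.6 and 49.4 CPM to 5.84, 6.31 and 10.3 CPM (log2 change -2.61). BG3, a beta-1,3-glucanase, had 1.87, 1.47 and 2.47 CPM at 22 °C against 0 counts in all 3 heat libraries, so it was at least 32.7-fold lower against a floor of 3 counts per library. PCR1 (PLANT CADMIUM RESISTANCE 1) was likewise at 0 and at least 22.7-fold lower. PCC1, named for pathogen and circadian control, fell from 7.12, 9.63 and 6.18 CPM to 0.105, 0 and 0.265 CPM.

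BGLU18, a beta-glucosidase of the endoplasmic reticulum bodies, fell from 2097, 2616 and 1828 CPM to 399, 347 and 438 CPM (log2 change -2.47, SE 0.21, adjusted p = 3.9e-05). Its 3 heat libraries lay far below the libraries at 22 °C. ACHT5, an atypical plastid thioredoxin, fell from 49.1, 34.9 and 37.9 CPM to 6.40, 8.75 and 6.50 CPM (log2 change -2.49, SE 0.17, adjusted p = 1.0e-05). RABG3d, a vacuolar Rab GTPase (-1.98), and PA200, an activator of the proteasome (-1.22), were in the same group. The 30 tested subunits of the 26S proteasome gave 0 calls, with a median of -0.25 that turned to 0.12 with library totals. Likewise 0 of 16 translation factors, 0 of 26 nucleolar ribosome assembly proteins, 0 of 22 antenna and photosystem proteins and 0 of 20 wax and cutin genes passed.

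The clock genes CCA1 and LHY, close relatives that peak together at dawn, parted. CCA1 rose from 5.38, 5.30 and 3.77 CPM to 28.6, 33.5 and 27.5 CPM (log2 change 2.62). LHY fell from 16.7, 19.4 and 15.6 CPM to 3.32, 3.71 and 2.81 CPM (log2 change -2.39). PRR7, a daytime repressor of both, rose from 65.2, 61.3 and 66.8 CPM to 155, 120 and 144 CPM (log2 change 1.12, SE 0.15, adjusted p = 5.0e-04). ELF4 of the evening complex fell by 1.26 on the log2 scale. LNK2 rose by 1.48 with coordinates that overlap AT3G54490. Of 21 clock genes 3 rose and 2 fell, and the median was -0.04. With library totals 3 rose and 1 fell, and without the libraries over 10% rRNA 1 rose and 0 fell. Among 16 genes of light signalling PIF7 (2.31) and BBX18 (1.43) rose.

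PRR7 carries a heat shock element upstream of its start. The form searched was TTC, GAA and TTC with any 2 bases between neighbours, on either strand. It was in 15 of 1017 promoters of protein-coding genes that rose (1.47%), in 4 of 1301 that fell (0.307%) and in 80 of all 19623 (0.408%). The lists kept for orientation were not left out of these counts. The element was in 2 of 18 promoters of the heat shock list and in 3 of 16 of the heat stress factor list. The share among the other genes that rose was not counted. The windows of PRR7 and of 3 stress genes that rose are set side by side with the element in capitals, to show the element upstream of a clock gene beside genes of the stress response.
PRR7, chr5:642072-642124, minus strand: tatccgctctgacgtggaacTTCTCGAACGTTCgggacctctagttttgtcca
GOLS1, chr2:19370546-19370598, minus strand: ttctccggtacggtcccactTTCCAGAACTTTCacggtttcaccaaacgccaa
HSFA2, chr2:11135516-11135568, plus strand: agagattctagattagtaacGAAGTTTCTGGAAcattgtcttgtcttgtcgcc
HSFA7A, chr3:19264929-19264981, plus strand: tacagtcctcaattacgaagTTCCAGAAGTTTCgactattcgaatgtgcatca
GOLS1 makes galactinol, the donor for raffinose. It rose from 14.7, 15.6 and 12.3 CPM to 113, 299 and 92.8 CPM, a log2 change of 3.57 (2.86 without replicate 2 at 38 °C) that is uncertain because its coordinates overlap AT2G47170. HSFA2, the heat stress factor that prolongs the response, had 19.0, 124 and 24.0 CPM at 38 °C. Replicate 2 was the highest in both genes. Site II (TGGGCC on either strand), known from genes of growth and ribosomal proteins, was in 192 of the 1017 promoters that rose (18.9%), 117 of the 1301 that fell (8.99%) and 16.8% of all.

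Late pollen genes differed widely between the heat libraries. Of 23 tested 9 fell and 0 rose, with a median of -1.25. SPIK, a potassium channel of the pollen tube, stood at 17.8, 18.8 and 18.1 CPM at 22 °C and at 6.40, 3.8 and 3.14 CPM at 38 °C (log2 change -2.04, SE 0.45, adjusted p = 0.00684). CPK34, a calcium-dependent kinase of the pollen tube, stood at 8.82, 9.19 and 7.48 CPM and at 1.55, 1.5 and 0.795 CPM (log2 change -2.73). The pectin methylesterase VGD1 stood at 675, 689 and 474 CPM and at 392, 208 and 169 CPM (log2 change -1.26). In SPIK and VGD1 replicate 1 was the highest of the heat libraries and replicate 3 the lowest, as also in CPK17, ANX2 and PRK2. Without replicate 3 at 38 °C 3 of the 23 fell, without replicate 2 at 38 °C or replicate 2 at 22 °C 4 did, and without the libraries over 10% rRNA 0 did, with a median of -1.84. Of 22 tapetum and pollen wall genes 0 fell and QRT3, a polygalacturonase that frees pollen from its tetrad, rose by 1.3 in a call lost in 5 of 6 fits that each left out 1 WT library. Meiotic genes gave 3 rises of 15, among them ASY1 of the chromosome axis at 2.47, whose coordinates overlap AT1G67365.

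The largest changes lay in genes that were nearly silent at 1 of the temperatures. ILL5, an amidohydrolase of auxin conjugates by homology, had 0 counts in all WT libraries at 22 °C and 6.86, 2.64 and 2.04 CPM at 38 °C. That is at least 36.8-fold higher against 3 counts per library, or at least 22.4-fold without replicate 1 at 38 °C. In bzip17 ILL5 was not silent at 22 °C, with 0.889, 0.352 and 0.636 CPM, and its log2 change there was 3.19. APX2, a cytosolic ascorbate peroxidase of the heat response, had 12 counts in total at 22 °C, all in replicate 3, and 42.5, 182 and 37.7 CPM at 38 °C. Its log2 change of 9.53 was 15.23 without replicate 3 at 22 °C and 8.38 without replicate 2 at 38 °C, with 8.46 and 8.76 without replicates 1 and 2 at 22 °C. FTSH6, a plastid protease, had 4 counts at 22 °C and 3.53, 23.5 and 1.65 CPM at 38 °C, a log2 change of 8.16 that was 11.94 without replicate 1 at 22 °C and 6.29 without replicate 2 at 38 °C. CYP714A2, a gibberellin-modifying P450, fell from 3.59, 3.01 and 6.44 CPM to 0.084, 0 and 0 CPM. IGMT4, a methyltransferase of indole glucosinolates, fell from 3.84, 3.46 and 3.12 CPM to 0.168, 0 and 0 CPM. Most of these genes were picked for a large change without overlap of libraries. Such genes could also pass the FPKM limit through 1 temperature alone, which fixes their direction. Their values are therefore descriptions, and the fitted sizes are imprecise.

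The share of rises was counted by gene type. Among nuclear protein-coding genes 5.18% rose and 6.63% fell. Small nucleolar RNA (snoRNA) genes, whose products guide the modification of rRNA, gave 35 rises and 1 fall among 66 tested (53.0% and 1.52%). They summed to 72.6, 74.9 and 67.0 CPM at 22 °C and to 249, 225 and 267 CPM at 38 °C, which does not overlap. Much of the sum at 38 °C came from 1 cluster on chromosome 4 (18304891 to 18305704). Its most abundant genes had means of 60.4, 45.3 and 21.4 CPM at 38 °C. Other snoRNA genes that rose also lie next to each other, so the 35 rises are not 35 separate loci. A gene that is high only after heat could pass the FPKM limit through the heated libraries alone, which fixes its direction, so the shares are descriptions. Among genes that reached the limit in at least 3 libraries at 22 °C of both genotypes together, a count added after the data were seen, 24 of 48 snoRNA genes (50.0%), 4 of 20 miRNA genes (20%) and 4.30% of protein-coding genes rose. The snoRNA genes AT4G39363 (chromosome 4, 18305256 to 18305375) and AT4G39364 (18305415 to 18305536) are neighbours and were picked after their values were seen. The first went from 4.33, 4.05 and 4.36 CPM to 62.5, 49.9 and 68.7 CPM (log2 change 3.83, adjusted p = 1.9e-05), and the second from 4.61, 4.78 and 3.32 CPM to 48.8, 36.6 and 50.5 CPM (log2 change 3.40). The number of snoRNA genes that rose was 30 to 34 as each WT library was left out and 8 without the libraries over 10% rRNA.

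MicroRNA genes gave 11 rises and 0 falls of 49 (22.4%), and these reads measure the precursor transcripts, not the mature miRNA. MIR156c, whose product represses SPL factors, had 0 counts in WT at 22 °C and 1.24, 0.873 and 1.12 CPM at 38 °C, at least 10.3-fold higher. MIR171c, whose product targets GRAS factors, was at 0 in WT and then at 0.651, 1.23 and 0.387 CPM, at least 7.24-fold higher. In bzip17 at 22 °C MIR156c had 0.108, 0 and 0.0578 CPM and MIR171c 0.0269, 0 and 0.116 CPM. MIR824, a gene picked after its values were seen, went from 4.42, 4.33 and 4.36 CPM to 23.0, 40.2 and 13.3 CPM (log2 change 2.54), and its coordinates overlap AT4G24410. The number that rose was 4 to 10 as each WT library was left out, with 6 without replicate 2 at 22 °C, 5 without replicate 3 at 22 °C and 4 without replicate 2 at 38 °C. It was 0 without the libraries over 10% rRNA. Of 143 long noncoding RNA genes 20 rose and 1 fell, and of 160 transcribed pseudogenes 48 rose and 6 fell.

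**Figure D4:**
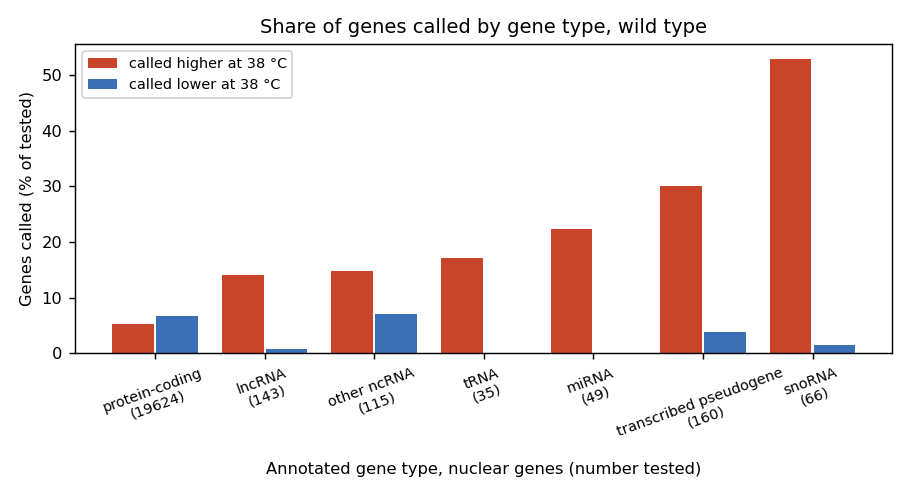
Percent of tested nuclear genes that passed the test in either direction in WT buds, by annotated gene type (number tested in parentheses). snoRNA genes reach 53.0% higher against 5.18% of protein-coding genes, and no miRNA or tRNA gene fell.

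Part of this noncoding and pseudogene signal sits in 1 place. Chromosome 2 holds a nuclear copy of much of the mitochondrial genome, and among the 135 tested nuclear genes with AT2G07 locus codes 87 rose (64.4%), against 178 of the 3063 other tested genes of that chromosome (5.81%). Their sum went from 1128, 2108 and 2412 CPM to 5997, 6935 and 4550 CPM. In the mitochondrial genome itself 105 of 144 genes rose (72.9%). These 144 genes summed to 3410, 9580 and 56017 CPM at 22 °C and to 19225, 21254 and 11451 CPM at 38 °C. This sum includes the rRNA genes of the mitochondrion. In it replicate 3 at 22 °C, the library with most rRNA, exceeded every heat library. Outside rRNA the mitochondrial share of counts was 0.0523, 0.129 and 0.444% at 22 °C and at least 0.627% at 38 °C. At 22 °C that share followed the order of the rRNA share. Mitochondrial rises were not counted without the libraries over 10% rRNA. Reads of the nuclear copy and of the organelle cannot be told apart by gene counts. All 6 of the tRNA genes that rose carry AT2G07 codes, while the number of tRNA genes that rose was 1 without replicate 1 at 22 °C or at 38 °C and 3 without replicate 2 or replicate 3 at 38 °C.

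The length of the genes was compared next. The median summed exon length was 1528 bases in protein-coding genes that rose, 1567 in those that fell and 1701 in all tested, and genes with a single exon made up 22.1%, 22.9% and 15.7%. Genes of up to 600 exon bases rose in 11% of cases, and those of over 3000 in 3.44%. The share that fell was 6.24% and 5.07% at these ends and highest, 8.77%, from 600 to 800 bases. The 40 histone genes had a median of 844.5 bases, and 52.5% of them had a single exon.

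The same treatment of the bzip17 mutant shares no libraries with the WT comparison. The FPKM limit, the scaling and the estimate of spread were taken over all 12 libraries, so the 2 sets of calls are not fully independent. There 1259 genes were higher and 1335 lower (6.08% and 6.44% of those tested). Of the WT genes that rose 69.1% also rose in bzip17, where the 915 shared genes were 72.7% of the rises. Of those that fell in WT 58.2% also fell in bzip17, where the 776 shared genes were 58.1% of the falls, and 0 genes were called in opposite directions. The difference between the heat changes was tested gene by gene. It gave 0 calls (0.00%) with edgeR's quasi-likelihood test, 895 genes at an unadjusted p under 0.05 (4.32%) and 6 calls with DESeq2. The histones fell in both, 23 and 31 of 40. Of the 27 mitosis genes 15 fell in WT, while 6 fell and 2 rose in bzip17, with medians of -1.03 and -0.61. For these 27 genes the test of the difference gave 0 calls. The late pollen list fell in 9 of 23 genes in WT and in 0 in bzip17, with medians of -1.25 and 0.10, and 0 of the 23 passed the test of the difference, while 10 had an unadjusted p under 0.05 for it. At 22 °C the list summed to 3491, 3691 and 2878 CPM in WT and to 1291, 1714 and 1899 CPM in bzip17. At 38 °C the genotypes overlapped, with 2478, 1258 and 949 CPM in WT and 882, 2240 and 2653 CPM in bzip17. The difference between genotypes at 22 °C was not tested here. NIA2 changed by 2.69 in WT and by 0.74 in bzip17, with an unadjusted p of 9.61e-05 for the difference in edgeR and no call after adjustment. LHY changed by -2.39 and -0.60 (unadjusted p = 0.00311 in that test), with 4.77, 7.42 and 2.83 CPM in bzip17 at 22 °C. NIR1 changed by 1.59 and -0.09 (unadjusted p = 0.00448). Such a p was under 0.05 for 4 of 21 clock and 5 of 18 nitrogen genes, and 0 of them passed after adjustment.

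**Figure D5:**
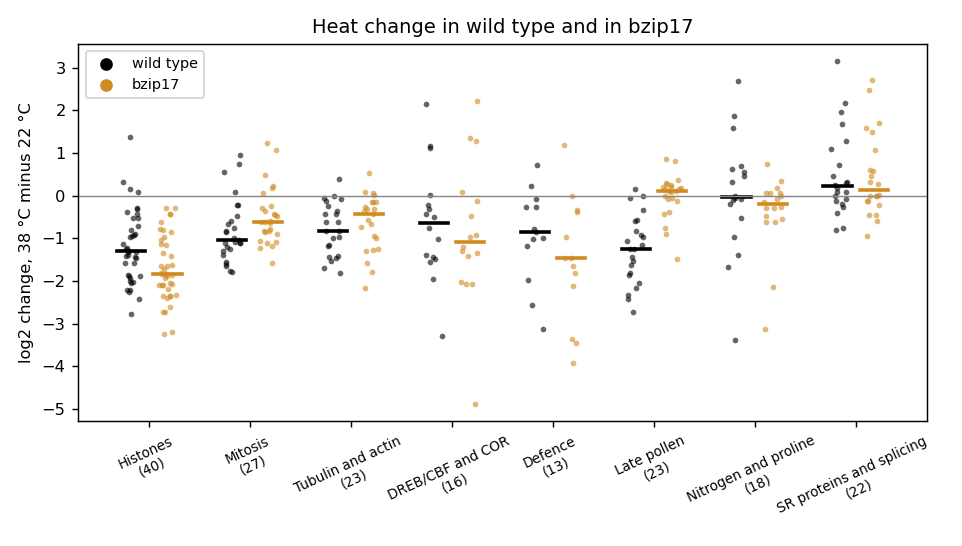
Log2 change between 38 °C and 22 °C of each gene of 8 lists in WT (black) and in bzip17 (orange), 1 point per gene, with bars at list medians and the number of genes in parentheses. Histone medians are -1.3 and -1.83, and late pollen medians -1.25 and 0.10.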

How the data were processed

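The authors extracted total RNA with TRIzol, and per the labels the submitters' processing notes name cutadapt, HISAT2, StringTie and the TAIR10 build, without versions. How rRNA was removed and whether libraries kept strand are not given in the sources used here. Read counts per gene and library were deposited. FPKM values from the authors were in the same table, which set the expression limit (1 FPKM in at least 3 libraries) and nothing else. Counts were scaled by TMM to CPM and fitted with edgeR 4.0.16 (quasi-likelihood, limma 3.58.1, R 4.3.3) with 4 group means over 12 libraries, adjusted by Benjamini-Hochberg over 20715 genes. DESeq2 1.42.0 was an alternative. The script was tested on simulated data with the same depths. Calls needed an adjusted p under 0.05 with a change over 2-fold, and a difference between genotypes at an adjusted p under 0.05. The standard error is the log2 change over the square root of F. Bounds against a floor of 3 counts per library cover counting error only. Library totals were 38.6 to 54.9 M counts in WT. The deviations of same-number WT replicates correlated at 0.03, 0.11 and -0.13, so no pairing was used. The labels name separate replicates, and p-values measure the spread between them.

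The gene lists and tests were chosen with earlier results of these data known, so no list is independent evidence. Lists are described by counts and medians only, and 2 of 42 held markers of seed and root. Named genes, by rule, are the 10 with the smallest p and the 6 with the largest change in each direction (nuclear, with a symbol, no overlapping gene, and for the latter no overlap of libraries, and not on the heat shock, heat stress factor or unfolded protein lists), up to 4 called members per list and direction, and BZIP17. Uncalled members complete a list. Other called genes (HTA11, HTA13, the H3.1 genes AT1G09200, AT5G10400 and AT5G65360, CYCB2;1, CYCB2;2, SR34B, RS31A, EDS1, RAB18, VGD1, ANX2, PRK2, MIR824 and the snoRNA genes of 1 cluster on chromosome 4) were chosen after their values were seen. Symbols and promoter letters come from RefSeq for TAIR10.1, which matched 28932 of 33610 genes. Positions of genes are those of the table on TAIR10. Overlapping genes have uncertain counts. Alternatives were other scalings, filters, thresholds and sets of libraries. Python 3.11.15, pandas 2.3.3 and matplotlib 3.10.9 drew tables and figures.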

Additional observations from a re-analysis of the deposited data

How the results depend on the processing

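The WT counts (1325 higher, 1333 lower) stayed within 1.5-fold under DESeq2, TMM without rRNA and organelle genes, no FPKM filter, only the 6 libraries of the genotype, an unadjusted p, and with each library left out (1074 to 1341 higher, 940 to 1273 lower). Library totals gave 305 lower in WT and 448 lower in bzip17, while libraries of at most 10% rRNA gave 339 higher and 168 lower in WT from 1 library against 2, with the lone library assumed to vary like the other groups. In bzip17 the range with each library left out was 1020 to 1267 higher and 1048 to 1338 lower. Calls of a difference between genotypes were 0, but 6 with DESeq2, 3 with library totals, 895 at an unadjusted p, 1 without the libraries over 10% rRNA and 0 to 3 with single libraries left out. The cause of these shifts was not tested, beyond the smaller number of libraries.

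A replicate block over the 12 libraries gave 1312 higher and 1311 lower in WT. A replicate block among the 6 WT libraries, added after the data were seen, gave 1031 and 1332. Deviations of same-number WT replicates correlated between temperatures at 0.03, 0.11 and -0.13. Across genotypes no such correlation was computed. The heat shock list summed to 5550, 21212 and 6340 CPM at 38 °C in WT and to 7084, 15990 and 8962 CPM in bzip17. Replicate 2 was thus the highest in both genotypes, and the reason was not tested. Of 137 named genes 0 reversed direction in any alternative, and 137 kept their side of the threshold under the block over 12 libraries, 136 under DESeq2, 94 under library totals and 44 without the libraries over 10% rRNA. The smallest library outside rRNA was replicate 3 of WT at 22 °C with 13.6 M counts, and fitted changes of genes with few or 0 counts at 1 temperature are imprecise.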
